A study of Homo sapiens with 6 samples.

Results

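The genes described here belong to the families that ERK signaling uses to restrain and relay itself: dual-specificity phosphatases (DUSP), Sprouty and Sprouty-related proteins (SPRY, SPRED) and ETS variant transcription factors (ETV). They were taken by name, as every gene of the authors' deposited table whose symbol is DUSP, SPRY, SPRED or ETV followed by digits only. This gave 13 genes of the 4546 in the table. RNA was sequenced from A549, a human lung adenocarcinoma cell line. Each group had 3 libraries, of cells held for 48 hours in 1/1000 DMSO, the solvent control, or in mitoxantrone at 50 nM, a drug that traps topoisomerase II on DNA. The table holds genes the authors had called changed between these same libraries, with an absolute log2 fold change of at least 1.00 and an adjusted p of at most 0.0497. A family gene missing from it is reported as not listed, which says nothing of its level.

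ERK is the last kinase of a relay that runs from receptor tyrosine kinases through RAS, RAF and MEK. Active ERK induces its own inhibitors: MAP kinase phosphatases of the DUSP family remove phosphate from ERK, p38 or JNK, and Sprouty and SPRED proteins act at the level of receptors, RAS and RAF. ETV1, ETV4 and ETV5, the PEA3 group of ETS factors, bind DNA and are both targets and effectors of the pathway. In lung cancer cells, transcripts of some of these genes, DUSP6 among them, are commonly read as a measure of ERK output.

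Levels below are normalized counts, reads divided by a size factor for each library's depth, unless FPKM is named, and SE is the standard error of a log2 fold change. The recovered library totals were 16681380 to 21781220 reads, and the listed genes held 16.9% to 17.3% of them. Of 13 lung epithelial markers 4 were listed, with a summed level of 62359 to 71369 normalized counts per library in DMSO and 152520 to 166457 in mitoxantrone. Of 14 leukocyte markers 3 were listed (ITGAX, CD14 and CD8A, summed 41.8 to 56.9 and 252 to 258), and PTPRC was not listed. Of 12 fibroblast and endothelial markers 5 were listed (summed 775 to 811 and 1606 to 1868), among them COL1A1, at a mean of 620 normalized counts in DMSO and 267 in mitoxantrone, and ACTA2, at 143 and 1349. The part of these markers in the results was not tested.

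Most members fell after mitoxantrone. Of the 13 genes 10 were lower and 3 higher, where 41.1% of all listed genes were lower and 58.9% higher. Among the 10 that fell were DUSP1, DUSP5, DUSP6 and DUSP8, both listed Sproutys and all 3 PEA3 factors, by 2.04-fold (DUSP5) to 4.05-fold (DUSP8) between group means. Of the 3 that were higher, SPRED3 rose 2.22-fold, and DUSP13 and DUSP2 had 0 reads in DMSO and few in mitoxantrone. All 13 had an adjusted p under 0.05 in edgeR's quasi-likelihood fit, as did 100% of the listed genes, and in all 13 the groups did not overlap, against 98.3% of listed genes. Because the table had been selected on these libraries, neither count is evidence of its own. The median log2 fold change of the 13 was -1.44, against 1.20 over all listed genes. It was the same with DUSP13 and DUSP2 set against a floor of 3 DMSO reads. In a stricter test, that the change exceeds 2-fold (glmTreat), 11 of the 13 passed, 9 lower and 2 higher (DUSP2 and DUSP13). Of listed genes 80.6% passed, 32.1% lower and 48.5% higher. This test used the same selected libraries and is no evidence of its own either. For DUSP2 and DUSP13 it rests on a few mitoxantrone reads against 0 in DMSO. All 9 members whose mean reached 50 normalized counts were lower, as were 55.0% of the 2622 listed genes at that level.

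**Figure D1:**
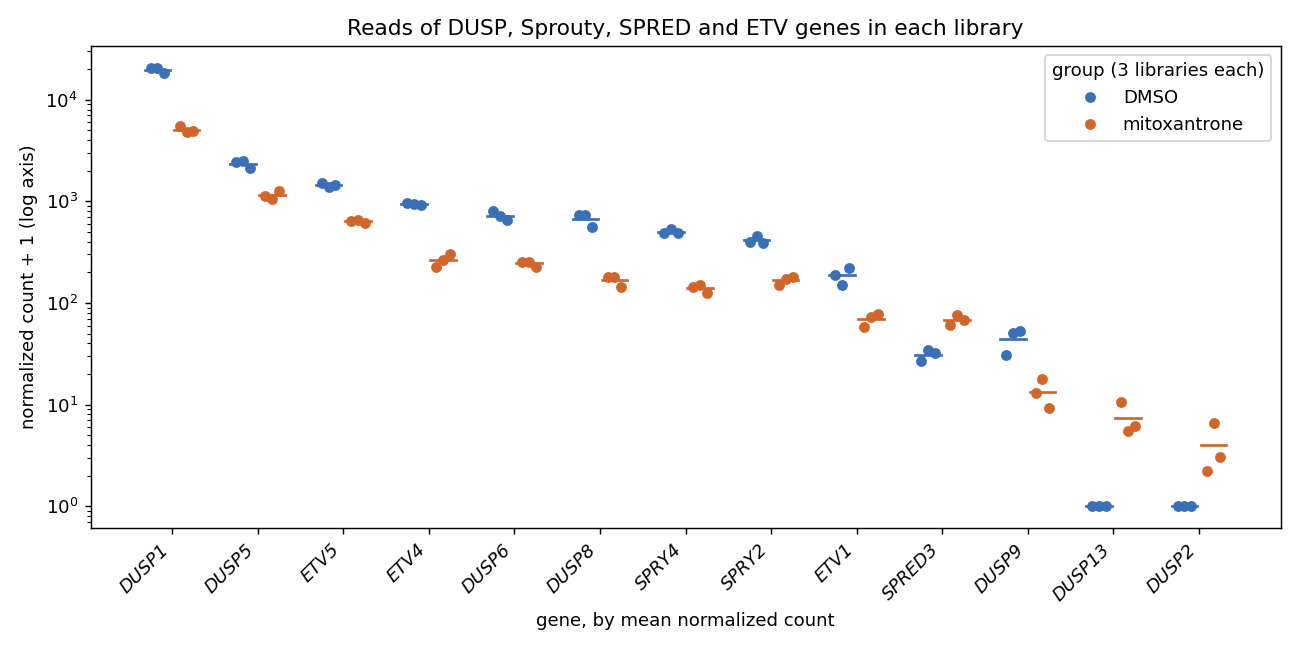
Normalized count plus 1 (log axis) of each of the 13 genes in each library, with DMSO in blue and mitoxantrone in orange; points are libraries and bars are group means. In 10 genes the orange points lie under the blue ones, SPRED3, DUSP13 and DUSP2 show the opposite order, and DUSP1 stands above every other gene in both groups.

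DUSP1, also called MKP-1, is a nuclear phosphatase of p38, JNK and ERK and a classic immediate early gene. It was the most abundant member, and ranked 29 of the 4546 listed genes by mean normalized count. Its 3 DMSO libraries held 20418, 20557 and 18439 normalized counts and its mitoxantrone libraries 5548, 4787 and 4921. Every mitoxantrone library lay far under every DMSO library, and the spread within a group was small. The group means were 19805 ± 1185 and 5085 ± 406 (SD, n = 3 libraries), a 3.89-fold fall (log2 fold change -1.96 ± 0.06 SE; edgeR, adjusted p = 4.9e-28). The deposited table places DUSP1 (ENSG00000120129) at 172195093 to 172198198 on chromosome 5, with no build named. In GRCh38.p14, used for the sequences below, the window before its start begins at 172771196, so the deposited positions are not on that build. In GENCODE 29 the antisense gene AC022217.3 covers its whole span. Overlaps here and below are of gene spans, introns included. The annotation and strand setting used for counting are not stated, so how far reads of the pair mixed is not known. In bulk RNA a lower level per cell and a smaller share of expressing cells cannot be told apart.

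DUSP8, a phosphatase directed mainly at JNK and p38, fell most. Its normalized counts were 734, 733 and 559 in DMSO and 180, 177 and 143 in mitoxantrone. DMSO 3 was the lowest of its group and mitoxantrone 3 of the other, yet the groups stayed well apart. The change was 4.05-fold (log2 fold change -2.02 ± 0.12; edgeR, adjusted p = 9.9e-20). KRTAP5-AS1, antisense to DUSP8 over 568 bases in GENCODE 29, is itself listed, with 56 reads over the DMSO libraries and 12 over the mitoxantrone libraries, against 2293 and 446 for DUSP8. Reads over that overlap cannot be assigned without strand.

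Sequence before the transcription start was available from RefSeq (GRCh38.p14) for 9 of the 13 genes, in 18 windows of 250 bases. DUSP5, DUSP13, ETV4 and ETV5 had no window. On either strand 6 motifs were searched: the cyclic AMP response element TGACGTCA, the AP-1 site TGANTCA, the ETS site CCGGAAGT, the TATA box TATAAA, the CArG box of serum response factor and the p53 decamer. TGACGTCA reads the same on both strands and does not overlap TGANTCA. It was found in 2 of the 18 member windows, those of DUSP1 and DUSP8, and in 1.65% of all 35116 RefSeq windows of this length. DUSP1 also held TATAAA (10.7% of all windows), from 30 to 25 bases before its start, and 1 of the SPRED3 windows held TGANTCA (6.57%). No member window held CCGGAAGT (3.42%), a CArG box (1.16%) or a p53 decamer (5.57%), which says only that those letters are not in these windows. A match is a description of the sequence and does not show that a factor binds there. The DUSP1 and DUSP8 windows are shown for these matches, and a window of SPRY2, which had several, as one without any. Capitals mark motif matches. Each sequence is read 5′ to 3′ on the gene's strand, at chr5:172771196-172771445, chr11:1572272-1572521 and chr13:80341127-80341376, all on the minus strand.
DUSP1: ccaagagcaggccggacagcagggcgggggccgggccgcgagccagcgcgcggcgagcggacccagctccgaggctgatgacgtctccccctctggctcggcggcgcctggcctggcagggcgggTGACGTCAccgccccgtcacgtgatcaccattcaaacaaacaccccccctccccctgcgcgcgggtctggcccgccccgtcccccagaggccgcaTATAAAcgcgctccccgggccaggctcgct
DUSP8: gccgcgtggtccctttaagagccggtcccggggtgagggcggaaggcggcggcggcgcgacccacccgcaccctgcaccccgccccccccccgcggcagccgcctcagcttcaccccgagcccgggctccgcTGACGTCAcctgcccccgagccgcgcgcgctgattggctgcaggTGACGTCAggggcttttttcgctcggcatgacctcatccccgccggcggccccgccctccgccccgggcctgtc
SPRY2: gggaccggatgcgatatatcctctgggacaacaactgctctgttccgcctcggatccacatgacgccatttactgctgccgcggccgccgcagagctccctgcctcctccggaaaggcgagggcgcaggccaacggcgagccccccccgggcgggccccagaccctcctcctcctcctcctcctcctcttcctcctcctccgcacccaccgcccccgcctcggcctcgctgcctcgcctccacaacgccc
The DUSP1 match to TGACGTCA lies 125 to 118 bases before the start. DUSP8 holds 2 such matches, at 118 to 111 and 74 to 67 bases. The windows shown are rich in G and C, at 74.4% for DUSP1, 76.8% for DUSP8 and 70.4% for SPRY2, where the median of all windows was 58%. Other member windows were not all so: further SPRY2 windows held 62.4% and 41.2%, and ETV1 windows ran from 42.8% to 60.8%.

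DUSP6, or MKP-3, is a cytoplasmic phosphatase selective for ERK, and its transcript is widely used as a readout of ERK activity. It held 797, 717 and 652 normalized counts in DMSO and 253, 254 and 225 in mitoxantrone. The DMSO values spread over a wider range than the mitoxantrone values, and the groups were far apart. It fell 2.96-fold (log2 fold change -1.57 ± 0.10; edgeR, adjusted p = 3.8e-18). The table places it (ENSG00000139318) at 89741009 to 89747048 on chromosome 12, and GENCODE 29 has an antisense gene, AC024909.2, over 2257 bases of it.

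DUSP5, the nuclear phosphatase selective for ERK, was the second most abundant member and fell least. Its normalized counts were 2423, 2469 and 2108 in DMSO and 1135, 1042 and 1256 in mitoxantrone, with no overlap. The log2 fold change was -1.03 ± 0.08 (edgeR, adjusted p = 8.7e-16), close to the authors' threshold of 1.00. It did not exceed a 2-fold change by glmTreat (edgeR, adjusted p = 0.17). Of the listed genes that fell, a set cut at that threshold, 97.8% fell further.

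DUSP9, or MKP-4, a cytoplasmic phosphatase of ERK and p38, was a gene of few reads. It had 35, 53 and 60 reads in DMSO and 10, 15 and 8 in mitoxantrone. In normalized counts DMSO 1, at 30.0, was well below the other DMSO libraries, at 49.2 and 51.7, and all mitoxantrone libraries were lower still, at 8.16 to 16.9. Its log2 fold change of -1.82 carried the widest error of the members that fell (SE 0.32; edgeR, adjusted p = 2.1e-06).

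DUSP2 and DUSP13 were near the limit of detection. DUSP2, or PAC-1, a nuclear phosphatase best known from lymphoid cells, had 0 reads in all 3 DMSO libraries and 1, 5 and 2 in mitoxantrone. DUSP13, an atypical phosphatase whose locus is known from testis and skeletal muscle, had 0 reads in DMSO and 8, 4 and 5 in mitoxantrone. Against a floor of 3 reads over the DMSO libraries, DUSP2 was 3.37-fold and DUSP13 7.16-fold higher with mitoxantrone, whose reads were taken as counted. Without mitoxantrone 2 DUSP2 had 3 reads, the floor itself, and no such value can be given. Without mitoxantrone 1 the value of DUSP13 was 5.47-fold. Both omissions were chosen after seeing the data. These values allow for counting error of the DMSO zeros only, not of the few mitoxantrone reads, so the true fold changes may be smaller. The edgeR adjusted p was 0.0042 for DUSP2, or 0.040 without mitoxantrone 2, and 8.6e-05 for DUSP13. Both genes were listed on these same reads, so the p-values are no evidence of their own. The authors' deposited log2 fold changes were smaller, at 1.46 for DUSP2 and 2.43 for DUSP13, where the floor gave 1.75 and 2.84. In GENCODE 29 the coding gene SAMD8, which is not listed, overlaps DUSP13 on the opposite strand over 9636 bases, so the origin of its 17 reads is uncertain. DUSP4, DUSP7, DUSP10 and DUSP16, the other MAP kinase phosphatases, were not listed, nor were 13 of the 14 atypical DUSP genes looked up.

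SPRY4 and SPRY2, inhibitors of receptor tyrosine kinase signaling to ERK, both fell. SPRY4 held 492, 533 and 485 normalized counts in DMSO and 143, 148 and 125 in mitoxantrone. Both triplets were tight, and the highest mitoxantrone library was far under the lowest DMSO library. The change was 3.63-fold (log2 fold change -1.86 ± 0.11; edgeR, adjusted p = 5.2e-19). SPRY2 held 397, 450 and 392 in DMSO and 148, 169 and 179.6 in mitoxantrone, a 2.50-fold fall (-1.31 ± 0.11; edgeR, adjusted p = 5.5e-14). SPRY1 and SPRY3 were not listed. The table places SPRY4 (ENSG00000187678) at 141689992 to 141706020 on chromosome 5 and SPRY2 (ENSG00000136158) at 80910111 to 80915086 on chromosome 13.

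SPRED3, of the Sprouty-related proteins with an EVH1 domain, went the other way. It had 30, 36 and 36 reads in DMSO and 49, 66 and 65 in mitoxantrone. In normalized counts these were 25.7, 33.4 and 31.0 against 59.3, 74.5 and 66.3, again without overlap. The log2 fold change was 1.15 ± 0.22 (edgeR, adjusted p = 9.7e-06), which did not exceed 2-fold by glmTreat (edgeR, adjusted p = 0.11). SPRED1 and SPRED2 were not listed.

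**Figure D2:**
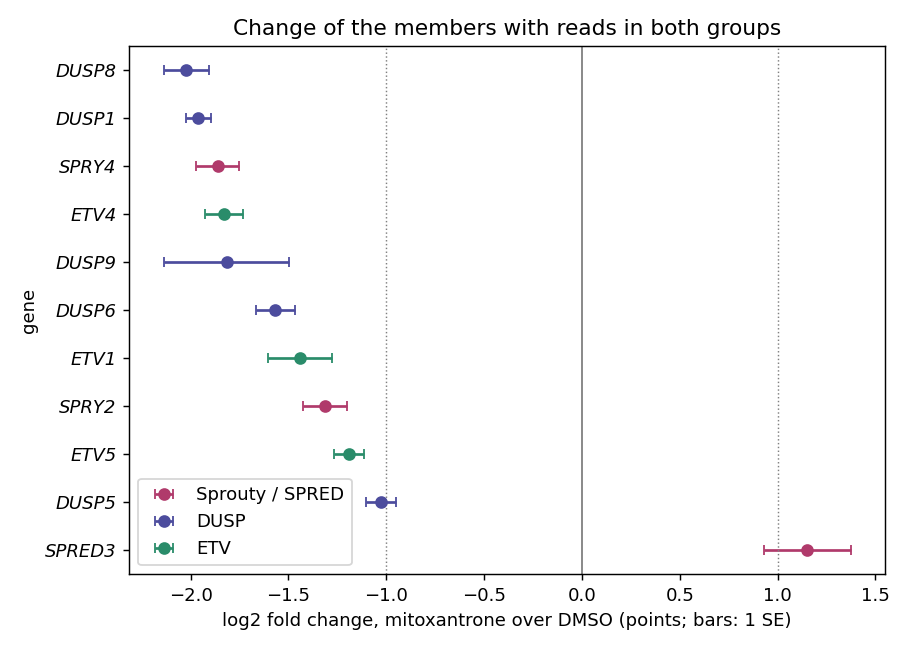
Log2 fold change of mitoxantrone over DMSO (points) with 1 SE (bars) for the 11 members with reads in both groups, colored by family; dotted lines mark a 2-fold change. The 10 lower genes range from -1.03 (DUSP5) to -2.02 (DUSP8), and SPRED3 alone lies above 0, at 1.15.

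All 3 factors of the PEA3 group fell, and the other 4 ETV genes were not listed. ETV4, also called PEA3, held 964, 948 and 926 normalized counts in DMSO and 227, 264 and 303 in mitoxantrone. The DMSO libraries differed little, the mitoxantrone libraries spread more, and the groups were far apart. ETV4 fell 3.57-fold (log2 fold change -1.83 ± 0.10; edgeR, adjusted p = 5.6e-21). ETV5, also called ERM, held 1499, 1389 and 1458 in DMSO and 639, 652 and 612 in mitoxantrone. It fell 2.28-fold (-1.19 ± 0.08; edgeR, adjusted p = 8.9e-18), with the tightest mitoxantrone triplet of the members (coefficient of variation 3.23%). ETV1, also called ER81, was lower in level, with 189, 148 and 222 in DMSO and 56.9, 71.1 and 76.5 in mitoxantrone. DMSO 2 was its lowest control and still well above the highest mitoxantrone library, and the fall was 2.73-fold (-1.44 ± 0.16; edgeR, adjusted p = 8.9e-11).

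The table places ETV4 (ENSG00000175832) at 41605212 to 41656988 on chromosome 17, ETV5 (ENSG00000244405) at 185764097 to 185828107 on chromosome 3 and ETV1 (ENSG00000006468) at 13930853 to 14031050 on chromosome 7. In GENCODE 29 the helicase gene DHX8 covers the whole ETV4 span on the opposite strand, and DGKG overlaps 4651 bases of ETV5 on the same strand and ETV5-AS1 1778 bases on the other. None of these neighbors is listed, and how many of their reads were counted to ETV4 or ETV5 is not known.

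FPKM, which scales reads by gene length and library total, allowed levels to be set between genes. In DMSO the order by mean FPKM was DUSP1 (523 ± 28.6), DUSP5 (47.6 ± 3.74), ETV4 (14.0 ± 0.280), ETV5 (13.3 ± 0.613), DUSP6 (8.32 ± 0.843), DUSP8 (7.80 ± 1.13), SPRY2 (6.70 ± 0.469), SPRY4 (4.53 ± 0.195), ETV1 (1.03 ± 0.210), DUSP9 (0.840 ± 0.227) and SPRED3 (0.637 ± 0.0777). Neighbors whose ranges over the 3 libraries overlapped were ETV4 with ETV5, DUSP6 with DUSP8 and DUSP8 with SPRY2, and ETV1 with DUSP9 and DUSP9 with SPRED3. DUSP2 and DUSP13 were listed at 0. In mitoxantrone DUSP1 (127 ± 8.48) and DUSP5 (22.0 ± 2.11) stayed in front, ETV5 (5.50 ± 0.183) stood above ETV4 (3.69 ± 0.565) with no overlap, and SPRY2 (2.53 ± 0.283) stood above DUSP8 (1.82 ± 0.214). SPRED3 (1.33 ± 0.165) overlapped SPRY4 (1.17 ± 0.0961), which had been well above it in DMSO. The mean FPKM values of the 6 listed MAP kinase phosphatases added up to 588 in DMSO and 153 in mitoxantrone, and DUSP1 made up 89.0% and 82.5% of these sums.

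**Figure D3:**
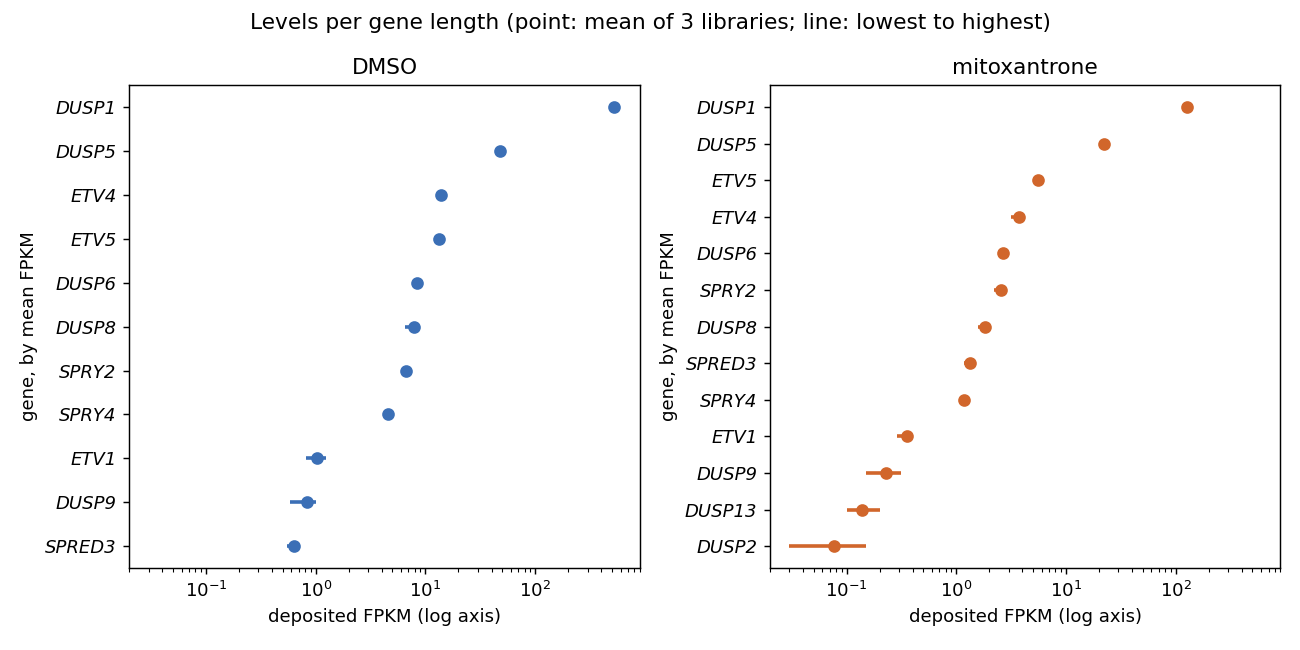
Deposited FPKM (log axis) of the members in DMSO (left) and mitoxantrone (right), ordered by mean; points are means of 3 libraries and lines run from the lowest to the highest library. DUSP2 and DUSP13, listed at 0 in DMSO, are left out on that side; ETV4 and ETV5 overlap in DMSO and not in mitoxantrone.

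The ratio of 2 genes within a library does not depend on the scaling of libraries, and 4 pairs were compared in this way, chosen after their values were seen. Per unit of gene length, ETV4 stood to ETV5 at 1.03, 1.10 and 1.02 in the DMSO libraries and at 0.573, 0.651 and 0.796 in the mitoxantrone libraries. The ratio of DUSP1 to DUSP5 was 10.9, 10.8 and 11.3 in DMSO and 6.33, 5.95 and 5.08 in mitoxantrone. That of SPRY4 to SPRY2 was 0.688, 0.656 and 0.686 in DMSO and 0.536, 0.484 and 0.388 in mitoxantrone. In each of these pairs the 3 mitoxantrone ratios lay below the 3 DMSO ratios. The ratio of DUSP6 to DUSP5 was 0.186, 0.164 and 0.175 against 0.126, 0.138 and 0.101, also without overlap. The share of other pairs of listed genes without overlap was not computed. Taken singly, 98.3% of listed genes had groups that did not overlap. The mean log2 ratio shifted by -0.93 for DUSP1 over DUSP5, -0.66 for ETV4 over ETV5, -0.54 for SPRY4 over SPRY2 and -0.53 for DUSP6 over DUSP5. A two-sided exact permutation test gave p = 0.10 for each pair, the smallest that 3 against 3 libraries allow, and 0.10 after Benjamini-Hochberg adjustment over the 4 pairs. Each pair set a member with a larger fall over one with a smaller fall. The direction of the shift was thus set by the choice, and the test is no evidence of its own.

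**Figure D4:**
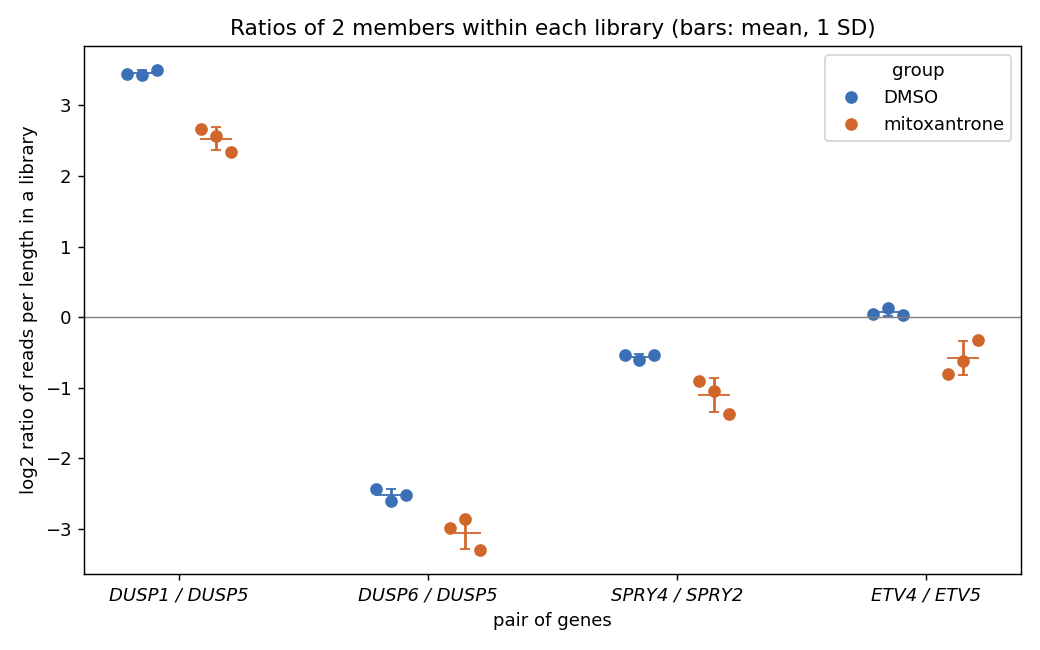
Log2 ratio of reads per gene length of 2 members within each library (points), with the group mean and 1 SD (bars), DMSO in blue and mitoxantrone in orange. In all 4 pairs, chosen after their values were seen, the mitoxantrone ratios lie below the DMSO ratios. The shift is largest for DUSP1 over DUSP5, at -0.93.

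The falls were of moderate size among the listed genes that went down, a set that holds only genes past the authors' threshold. The median log2 fold change of the 10 lower members was -1.69, and that of all 1869 lower genes in the table was -1.52. For DUSP8, the member with the largest fall, 28.9% of the lower genes fell further, and for DUSP6 47.1% did. By the annotation terms of the deposited table, 7 of the 13 members carried inactivation of MAPK activity, a term held by 9 listed genes. The term for MAP kinase tyrosine/serine/threonine phosphatase activity was held by 6 listed genes, all members. Members were taken by family name, so these counts largely follow from the choice and are no evidence of their own.

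For DUSP6, SPRY4 and ETV4 the 3 nearest genes outside the families were sought among the 2622 genes whose mean reached 50 normalized counts, by the distance between their 6 centered log2 values. Nearest to ETV4 were GEN1 (distance 0.119), ERRFI1 (0.134) and FBXO45 (0.140). Nearest to DUSP6 were ARHGAP33 (0.106), LATS2 (0.120) and BCOR (0.143), and nearest to SPRY4 were RRN3P1 (0.114), PYCR1 (0.116) and NXT1 (0.146). With 2 groups of 3 libraries, the measure mostly picks genes with a like fold change: the log2 fold changes of these 9 genes ran from -1.51 (LATS2) to -1.93 (RRN3P1).

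Upstream of ERK most genes of the pathway looked up were not listed. Of the 16 listed genes known to respond to ERK 13 were lower. Among all listed genes 41.1% were lower, and 55.0% of those with a mean of at least 50 normalized counts. Of 24 genes of the core cascade 3 were listed: HRAS was higher (669 ± 34.7 against 1480 ± 95.7 normalized counts; log2 fold change 1.15 ± 0.08), as was the docking protein gene GAB1 (1.07 ± 0.17), and the ribosomal S6 kinase gene RPS6KA2 was lower (-2.22 ± 0.34). Of 17 receptor genes only EPHA4, an ephrin receptor, was listed, and it was higher (2.29 ± 0.18). EGFR was not listed.

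Of 24 ligand genes 8 were listed, 5 higher and 3 lower. EREG and AREG, which encode the EGF receptor ligands epiregulin and amphiregulin, fell. EREG held 7501, 6856 and 6239 normalized counts in DMSO and 607, 826 and 947 in mitoxantrone (log2 fold change -3.11 ± 0.09). All 3 mitoxantrone libraries were far below the controls. AREG went from 633 ± 58.0 to 86.4 ± 8.86 (-2.87 ± 0.12), and PDGFB, a platelet-derived growth factor gene, was 4.46-fold lower. KITLG, the ligand of KIT, rose 6.49-fold. NRG4 (1.18 ± 0.22), IGF2 (1.30 ± 0.31) and FGF1 (1.96 ± 0.57) were higher on the log2 scale, on few reads. Over the DMSO and the mitoxantrone libraries these were 120 and 216 for NRG4, 56 and 109 for IGF2 and 11 and 35 for FGF1. NRG4 and IGF2 did not exceed a 2-fold change by glmTreat (edgeR, adjusted p = 0.088 and 0.070). FGF18 had 2 reads in all of DMSO and 25 in all of mitoxantrone.

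Of 27 genes known to respond to ERK outside these families 16 were listed, 3 higher and 13 lower (58.9% and 41.1% of all listed genes). Most of the 16 had a mean of at least 50 normalized counts, where 55.0% of listed genes were lower. Their median log2 fold change was -1.60. EGR1, an immediate early zinc finger factor, fell most, from 631, 499.7 and 340.5 normalized counts in DMSO to 7.26, 9.03 and 8.16 in mitoxantrone (log2 fold change -5.89 ± 0.24). The DMSO libraries differed almost 2-fold among themselves, and the mitoxantrone libraries held 6 to 8 reads each. MYC (-2.03 ± 0.07), PHLDA1 (-1.66 ± 0.07), the AP-1 subunit FOSL1 (-1.39 ± 0.09), IER3 (-1.55), IER2 (-1.38), the cytokine LIF (-1.37) and the receptor gene TNFRSF12A (-1.19) were lower as well. CCND1, which encodes cyclin D1, rose against this, from 5921 ± 91.1 to 19162 ± 683 (1.69 ± 0.06). The other 2 that were higher, named after their values were seen, were the potassium channel gene KCNN4 (2.80) and ARC (2.18).

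Of 19 other feedback and RAS inhibitor genes 4 were listed, 2 in each direction. ERRFI1, the feedback inhibitor of the EGF receptor also called MIG6, held 4916, 4784 and 4841 normalized counts in DMSO and 1141, 1316 and 1404 in mitoxantrone, a 3.77-fold fall (-1.91 ± 0.07). CBL, a ubiquitin ligase of receptor kinases, was lower (-1.11 ± 0.08), and IL17RD, also called SEF, (1.04 ± 0.18) and the RAS GTPase activator gene RASAL1 (1.77 ± 0.47) were higher. Of 19 ETS factors outside the ETV family 5 were listed: ETS1 (-2.31 ± 0.08) and ELK4 (-1.38 ± 0.10) were lower, ELF3 (1.24 ± 0.07) and EHF (3.02 ± 0.18) higher, and SPI1 went from 1 read to 13 over the groups. Of 20 genes of the p38 and JNK cascades only MAPK11, p38 beta, was listed, and it was higher (1.37 ± 0.10).

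**Figure D5:**
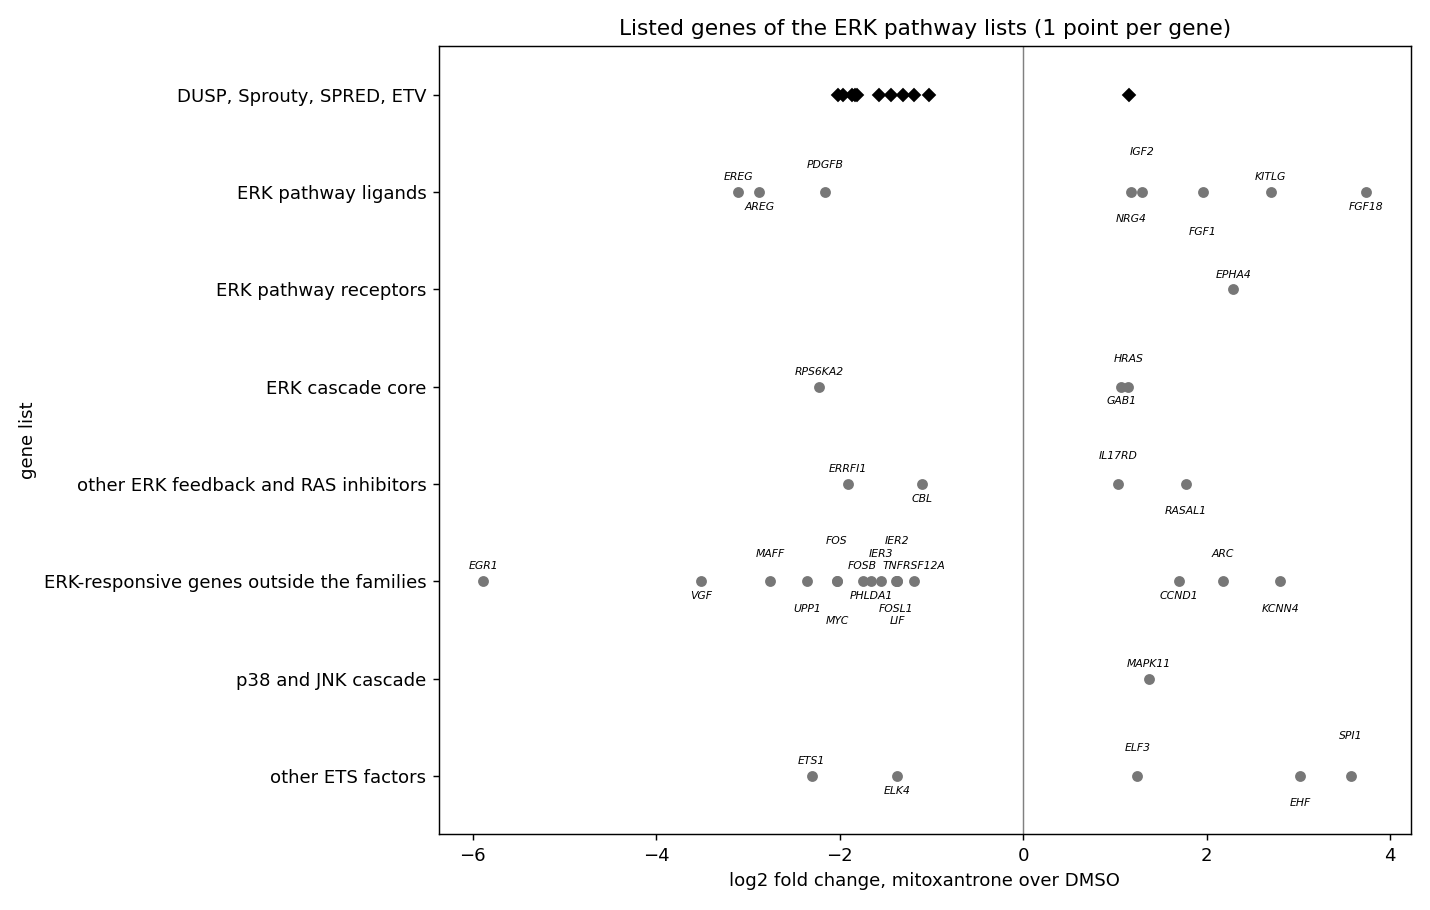
Log2 fold change of mitoxantrone over DMSO for every listed gene of 7 pathway lists (grey points, 1 per gene) below the 11 members with reads in both groups (black diamonds). The responsive genes lie mostly left of 0, with EGR1 at -5.89 and CCND1 at 1.69, and the ligands split into 3 lower and 5 higher.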

How the data were processed

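RNA of 6 A549 libraries was analysed from 1 table of the whole series. Tools listed without roles in the submitters' processing notes are HISAT2 2.0.1, HTSeq 0.6.1, cutadapt 1.9.1, SAMtools 0.1.19, Cufflinks 2.2.1 and DESeq2. For build, annotation and strand setting the sources used here give nothing. Per the file headers, the authors deposited raw read counts and FPKM values per library. Other deposited columns are a mean signal of counts divided by size factors, the log2 fold change with an SE, their quotient as a score, and p-values, raw and adjusted.

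A least-squares fit of the mean signal on the counts returned the size factors (largest relative residual 4.8e-10), and FPKM values of 20 or more returned the library totals. Normalized counts are counts divided by size factors. Mitoxantrone was tested against DMSO over all 4546 genes with edgeR 4.0.16 (R 4.3.3), by a quasi-likelihood F-test without covariate or count filter, with Benjamini-Hochberg adjustment at 0.05. The SE is the fitted log2 fold change divided by the square root of F. The fit was tested on simulated data. All members are named; of each pathway list up to 8 genes with the highest mean were named, plus set genes. Members and lists were chosen with earlier results of these data known. Nothing in the labels says whether libraries came from separate cultures, so the p-values may reflect technical spread only. Alternatives were other scalings, a count filter, DESeq2 1.42.0, a test against a 2-fold change, an adjusted p of 0.01, a replicate block and leaving out each library. Same-numbered libraries did not deviate together, so the block is only an alternative.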

Additional observations from a re-analysis of the deposited data

How the results depend on the processing

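Over all other settings the 13 members had 180 values, of which 178 gave the same call, 2 lost it and 0 changed sign. Those 2 were DUSP5 and SPRED3 in the test against a 2-fold change, at adjusted p-values of 0.17 and 0.11 (glmTreat); over the remaining alternatives both passed. TMM scaling moved the median listed gene by -0.26 log2 and library totals by -0.08, and SPRED3 stayed higher under TMM, at 0.89. Of 224 counts of genes called, 5 moved by over 1.5 times. With a filter (10 counts or more in 3 or more samples) 1 member was higher in place of 3, because DUSP2 and DUSP13 were not tested, and 3 ligands in place of 5. Against a 2-fold change 3 ligands, 1 core cascade gene and 1 feedback gene were higher, because the threshold is stricter. Leaving out each library in turn gave 3 members higher and 10 lower every time. Same-numbered libraries had correlations of -0.07, -0.08 and 0.03 over 2622 genes, and with the replicate block 4546 genes were called, 3 members higher and 10 lower. Reads limit DUSP2, DUSP13 and DUSP9, and stability within a table selected on these libraries says little of genes near its threshold. The pairs of members compared within libraries were chosen after seeing the data.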
